A study of Mus musculus with 24 samples.

Results

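The matrix metalloproteases (MMPs), the ADAM and ADAMTS proteases and the tissue inhibitors of metalloproteases (TIMPs) were examined across 24 RNA-seq libraries of small cell lung cancer (SCLC) cell lines from mice. Members were the genes of the expression table whose symbols name an Mmp, an Adam, an Adamts or Timp1 to Timp4. This gave 73 of the 25239 genes, of which 23 were Mmp, 27 Adam, 19 Adamts and 4 Timp genes. The lines came from individual lung tumors of RP-TR-R2 mice of mixed strain background, in which Ad:CMV-Cre deletes floxed Rb1 and Rbl2 and locks a reversible gene trap (XTR) into Trp53, the gene for p53. All groups, the controls included, therefore share the loss of Rb1 and Rbl2. A Rosa26 FlpO-ER allele lets 4-hydroxytamoxifen remove the trap and restore Trp53, and the control libraries received the ethanol vehicle. Each line gave 4 libraries after 72 h, namely Control, Control + CsA (cyclosporin A, which binds cyclophilins), Restored and Restored + CsA. The 3 Type D lines (4711-1, 4711-18 and 4716-11, replicates 1, 2 and 3) lose viability by necrosis once p53 returns, whereas the 3 Type V lines (4711-11, 4716-10 and 4716-14) stay viable. A group is thus 3 lines, each grown from a single tumor, and the spread is the spread between tumors.

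Metalloproteases cut with a zinc ion held in the active site and are made as inactive proenzymes. Secreted MMPs cleave collagens, proteoglycans and other matrix proteins, membrane-type MMPs do so at the cell surface, ADAMs mainly release the outer parts of membrane proteins, and ADAMTS proteases process proteoglycans and procollagens. TIMPs block the active site. In carcinomas much of the secreted MMP activity is known to come from stromal cells, and here the RNA is that of cultured tumor lines.

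Values are TPM, transcript levels scaled by transcript length and by library total, so that levels of different genes may be set side by side. TPM keeps no counts and the depth is unknown. Trp53 was at 10.5 to 15.3 TPM in the 12 libraries without restoration and at 182 to 253 TPM in the other 12, and the 2 ranges do not overlap. Several neuroendocrine markers of SCLC were absent or nearly so: Chga was listed at 0 in every library, and Neurod1, Chgb, Calca and Dll3 stayed below 1 TPM in all. In Type V the fibroblast markers stood at a summed 75.6 to 572 TPM against 0.304 to 1.93 TPM in Type D, with 5 of 8 at a mean of 1 TPM or more and Thy1 and Lum below 1 TPM in every library. The epithelial markers summed to 490 to 1577 TPM in Type V and 4426 to 11820 TPM in Type D. Of the leukocyte markers, Ptprc, Adgre1 and Itgam stayed below 1 TPM throughout, and the sums of 6.53 to 56.3 TPM in Type D and 8.01 to 32.3 TPM in Type V were mostly Cd68. All 5 endothelial markers were below 1 TPM in every library.

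Of the 73 members, 38 reached 1 TPM in at least 3 libraries and were tested, namely 12 Mmp, 11 Adam, 12 Adamts and 3 Timp genes. A gene that is high in a single group could pass through that group alone. The other 35 did not pass. Of these, Mmp7, Adam7, Adam24, Adam29 and Adam39 were listed at 0 in all libraries. The remaining 30 were Mmp1a, Mmp1b, Mmp9, Mmp12, Mmp17, Mmp20, Mmp21, Mmp23, Mmp25, Mmp27, Adam2, Adam3, Adam4, Adam5, Adam18, Adam20, Adam21, Adam25, Adam28, Adam30, Adam33, Adam34, Adamts8, Adamts13, Adamts16, Adamts17, Adamts18, Adamts19, Adamts20 and Timp4. Among them Mmp9, the inducible gelatinase of inflammatory cells, had the highest single value, 8.41 TPM in Control line 4716-14, where it was 3.30 TPM with CsA and 0.830 TPM after restoration. Adam members outside the sheddase and neural classes, several of which are known from testis and sperm, passed in 1 of 15 cases, Adam32.

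**Figure D1:**
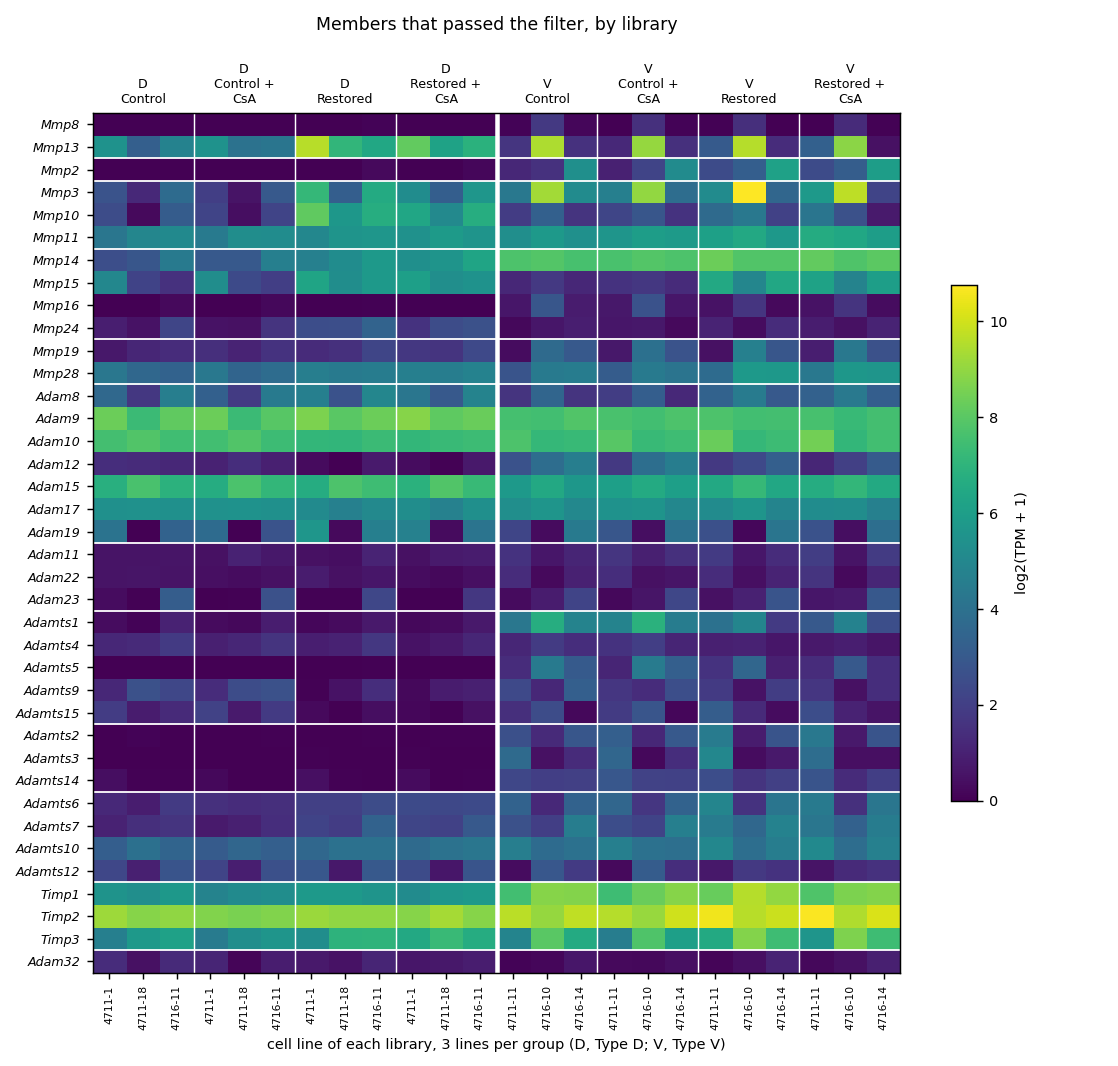
Expression of the 38 tested members (rows, grouped by role) in the 24 libraries (columns, named by cell line), as log2(TPM + 1) by color. Timp2, Adam9 and Adam10 are bright in every column, and Mmp14, Timp1 and Adamts1 are brighter in the 12 Type V columns. Among the Type V lines 4716-10 stands out for Mmp3 and Mmp13.

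Of the 23 Mmp genes, 10 form an unbroken run of protein-coding genes on chromosome 9, in the RefSeq order Mmp13, Mmp12, Mmp1b, Mmp3, Mmp1a, Mmp10, Mmp8, Mmp27, Mmp20 and Mmp7. The stretches before the starts of Mmp10, Mmp3 and Mmp13 are shown because these genes of the run hold the large changes of secreted MMPs described further on. They are the 120 bases before the annotated start on the plus strand in RefSeq GRCm38.p6, 5′ to 3′, at chr9:7502222-7502341, chr9:7445702-7445821 and chr9:7272394-7272513. Capitals mark the AP-1 motif, TGACTCA or TGAGTCA, which in mouse collagenase and stromelysin genes is a known element of response to growth factors and cytokines.
Mmp10: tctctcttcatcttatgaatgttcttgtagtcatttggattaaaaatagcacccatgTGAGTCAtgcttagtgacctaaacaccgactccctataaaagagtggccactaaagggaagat
Mmp3: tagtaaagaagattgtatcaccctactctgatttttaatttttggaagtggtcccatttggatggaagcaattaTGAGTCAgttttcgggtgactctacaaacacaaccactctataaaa
Mmp13: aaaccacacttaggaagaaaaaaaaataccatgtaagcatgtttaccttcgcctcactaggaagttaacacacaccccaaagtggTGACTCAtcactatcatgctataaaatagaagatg

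The motif begins at position -63 in Mmp10, -46 in Mmp3 and -35 in Mmp13, counted back from -1 as the last base before the start. Searched on both strands over the 250 bases before each start, it was found in 9 of 49 windows of 44 members with an entry (18.4%) and in 1466 of all 32851 windows (4.46%). Mmp12, Mmp1a, Mmp1b and Mmp7 of the same run also held it, as did Adam19 and Adam29. A p53 half-site, the decamer bound by a p53 dimer, was found by the same search in 4 member windows (Mmp13, Mmp24, Adam21 and Adamts13; 8.16%) and in 7.13% of all windows. A match describes letters only, and factor binding was not measured in these libraries.

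Type D and Type V were compared without restoration first, over the 6 Control libraries alone. A gene was called at an adjusted p under 0.05 (limma, Benjamini-Hochberg over all 14104 genes tested) with a change of at least 1 log2. All fold changes are on the log2(TPM + 1) scale, which understates those of low genes. In Control, 5 of 38 tested members were called lower in Type D (13.2%), where 2.30% of all genes were. None was called higher, where 2.18% of all genes were. At an unadjusted limma p under 0.05 there were 12 of 38 members in either direction, 11 of them lower, beside 3411 of all 14104 genes. The median difference was -0.49 over the members and -0.12 over all genes. The 5 were Mmp14, Adamts1, Adamts2, Adamts14 and Timp1.

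Mmp14, the membrane-type MMP that cleaves fibrillar collagen at the cell surface and activates pro-Mmp2, was at 4.95, 6.46 and 20.7 TPM in the Type D lines and at 214, 232 and 197 TPM in the Type V lines. No Type D value came near the lowest Type V value. The difference was -4.44 ± 0.49 (log2, SE, adjusted p = 0.0121). The study's Type V Signature, which was chosen on these samples, holds Mmp14, so this direction is no independent evidence. Its substrate Mmp2 was listed at 0 in all 3 Type D lines and was at 1.30, 1.91 and 40.0 TPM in Type V, and the difference of -2.70 ± 1.10 did not pass (adjusted p = 0.206). Line 4716-14 alone carried much Mmp2.

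Among the ADAMTS proteases the differences were close to presence and absence. Adamts1, which cleaves aggrecan and versican, was at 0.269, 0.0785 and 1.06 TPM in Type D and at 18.2, 103 and 26.9 TPM in Type V (-4.76 ± 0.68, adjusted p = 0.0227). Adamts2, which removes the amino-terminal propeptide of fibrillar procollagens, was at or below 0.0793 TPM in Type D and at 5.27, 1.45 and 6.36 TPM in Type V (-2.22 ± 0.44, adjusted p = 0.0478). Adamts14, another procollagen protease, was at 0.307, 0.0360 and 0.0335 TPM against 3.94, 2.94 and 3.17 TPM (-1.95 ± 0.21, adjusted p = 0.0114). In each of these the groups did not overlap, and all Type D values were near or below 1 TPM. The third procollagen protease, Adamts3, was listed at 0 in the 3 Type D lines and ran from 0.395 to 12.3 TPM in Type V without passing the test.

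Timp1, a secreted inhibitor that is weak against membrane-type MMPs, was at 45.8, 38.8 and 52.7 TPM in Type D and at 181, 452 and 432 TPM in Type V, with no overlap (-2.83 ± 0.38, adjusted p = 0.0199). Timp2, which both inhibits Mmp14 and bridges it to pro-Mmp2, was the most abundant member, at 585, 447 and 508 TPM in Type D and 792, 527 and 845 TPM in Type V. These groups overlapped and the difference was -0.47 (95% interval -1.01 to 0.07, adjusted p = 0.255). Timp3, the matrix-bound inhibitor that also blocks Adam17 and the aggrecanases, was at 24.3, 53.6 and 70.0 TPM against 27.9, 254 and 95.8 TPM (-0.95, interval -2.99 to 1.08, adjusted p = 0.514). Timp4 did not exceed 0.113 TPM in any library.

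The stromelysin and collagenase genes of chromosome 9 varied widely between lines of the same type. Mmp3, a stromelysin, was at 5.67, 1.39 and 12.6 TPM in Type D and 18.8, 618 and 35.6 TPM in Type V, with no overlap. Mmp13, the main interstitial collagenase of the mouse, was at 43.3, 8.69 and 26.1 TPM in Type D and 2.15, 684 and 1.92 TPM in Type V. Line 4716-10 stood far above its group in both, and the differences did not pass (Mmp3 -3.67, interval -7.08 to -0.27, adjusted p = 0.182; Mmp13 0.30, interval -5.08 to 5.67, adjusted p = 0.951). Mmp10, a stromelysin of the same run, was low everywhere in Control, at 4.74, 0.222 and 7.76 TPM in Type D and 2.77, 8.75 and 2.11 TPM in Type V.

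The ADAM sheddases did not separate the types by the test. Adam9 was at 325, 160 and 283 TPM in Type D and at 193, 179 and 225 TPM in Type V. Adam10, which sheds Notch receptors and cadherins, was at 187, 229 and 175 TPM against 212, 142 and 152 TPM, and Adam17, which releases TNF and ligands of the EGF receptor, at 41.1, 42.6 and 41.2 TPM against 39.4, 47.2 and 31.4 TPM. The difference for Adam17 was 0.10 with an interval of -0.34 to 0.54, the narrowest of these. Adam15 did not overlap between types, at 109, 202 and 121 TPM in Type D and 56.4, 88.4 and 51.6 TPM in Type V, but did not pass (1.11 ± 0.31, adjusted p = 0.103). Mmp11, a stromelysin activated inside the cell by furin, was at 17.5, 29.4 and 33.6 TPM in Type D and 38.3, 54.5 and 41.1 TPM in Type V. It did not overlap between types and was not called. Mmp28, an epilysin, was at 18.2, 11.0 and 9.36 TPM in Type D and 6.01, 20.1 and 22.0 TPM in Type V.

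The fibroblast markers moved with the same type difference, at the sums given above, and their part in it was not tested. In bulk libraries fewer cells with a transcript and less transcript per cell cannot be told apart. All 5 members had lost their call when line 4711-1 was left out, with adjusted p of 0.0543 to 0.164 and differences of -4.68 to -2.06. Without line 4711-18, 4716-11 or 4716-14 the number called was 2, 1 and 3. The Adamts2 call was the least stable, being lost in 9 of 13 alternative settings with an adjusted p of up to 0.164.

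**Figure D2:**
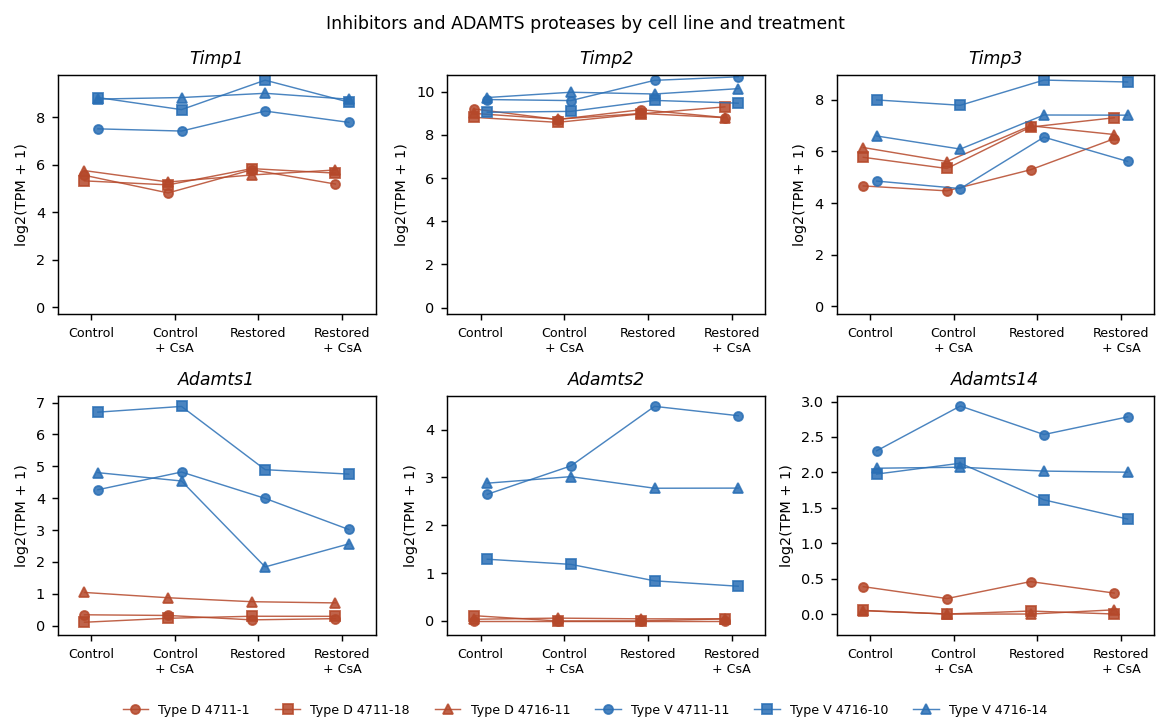
Timp1, Timp2, Timp3, Adamts1, Adamts2 and Adamts14 as log2(TPM + 1) in each treatment, with 1 connected set of points per cell line (red, Type D; blue, Type V). Timp1, Adamts1, Adamts2 and Adamts14 lie higher in every Type V line of the Control group, whereas Timp2 and Timp3 overlap there.

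With p53 restored, 3 of 38 members were called lower in Type D than in Type V (7.89%), where 1.72% of all genes were, and none higher, where 1.76% were. At an unadjusted limma p under 0.05 the count was 14 of 38 members in either direction, beside 3107 of all 14104 genes. Timp1 was at 54.0, 55.9 and 46.2 TPM in Type D and 304, 751 and 512 TPM in Type V (-3.21 ± 0.33, adjusted p = 0.00936). Mmp14 was at 25.0, 36.2 and 55.4 TPM against 322, 226 and 226 TPM (-2.75 ± 0.31, adjusted p = 0.0126), and Adamts14 at 0.374, 0.0299 and 0 TPM against 4.79, 2.06 and 3.05 TPM (-1.89 ± 0.33, adjusted p = 0.0366). These again did not overlap. Without line 4711-1 none of the 3 was called, with adjusted p of 0.0533 to 0.110, and without line 4716-10 the number was 5. The Adamts14 call in Restored was lost in 7 of 12 alternative settings, with an adjusted p of up to 0.128. Mmp10 now lay above every Type V line in all Type D lines and narrowly missed the call (3.46 ± 0.78, adjusted p = 0.0678).

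Restoration of p53 was examined within each type as Restored minus Control. In Type D, 4 of 38 members were called higher (10.5%), where 4.49% of all genes were, and none lower, where 2.44% were. In Type V 1 of 38 was called higher (2.63%), where 3.39% of all genes were, and none lower, where 1.90% were. At an unadjusted limma p under 0.05, 6 of 38 members passed in Type D, beside 3563 of all 14104 genes. In Type V 5 of 38 passed, beside 3117 of all 14104 genes, counting either direction. The median change of the members was 0.12 in Type D and 0.25 in Type V, beside 0.08 and 0.05 for all genes. All called members were MMPs, 3 of them membrane-type (Mmp14, Mmp15 and Mmp24) and 1 a stromelysin (Mmp10). Without line 4711-18 only Mmp10 was called in Type D, and without any of the Type V lines in turn 2 members were called in Type V. Markers of other cell types moved with restoration in the same lines. In Type D the summed leukocyte markers went from 11.0, 9.24 and 11.1 to 34.3, 31.9 and 56.3 TPM, mostly Cd68. Cd68 and Csf1r were higher in 3 of 3 lines, while Ptprc and Itgam, below 1 TPM throughout, were lower in 3 of 3. The summed epithelial markers went down from 11820, 6696 and 8547 to 9102, 4426 and 5986 TPM, with Cdh1 and Krt8 among 4 of 5 markers lower in 3 of 3 lines. In Type V the leukocyte sum went from 11.0, 8.01 and 8.75 to 16.8, 21.4 and 32.3 TPM and the epithelial sum from 663, 1577 and 966 to 490, 839 and 502 TPM. Cd68 was the only leukocyte marker higher in 3 of 3 Type V lines. Of the epithelial markers 4 of 5 were lower in 3 of 3 and Cldn7, below 1 TPM, was higher. The part of these markers in the changes of the members was not tested.

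The 4 libraries of a line are paired, and a fit with the cell line as a block removes the differences between lines. With this block 8 members were called higher in Type D (21.1%), where 7.05% of all genes were, and 1 lower, where 4.16% were. In Type V 6 were called higher (15.8%), where 5.74% were, and 2 lower, where 2.93% were.

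Mmp10 had the largest rise of all members in Type D. It went from 4.74 to 277 TPM in line 4711-1, from 0.222 to 50.5 TPM in line 4711-18 and from 7.76 to 103 TPM in line 4716-11, with every Restored value above every Control value. The change was 4.85 ± 0.89 (adjusted p = 0.00101). In Type V it went from 2.77 to 12.3, from 8.75 to 18.8 and from 2.11 to 3.23 TPM, higher in 3 of 3 lines, and did not pass (1.10 ± 0.89, adjusted p = 0.551, and 0.0792 with the block).

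Mmp3 and Mmp13, which lie in the same run on chromosome 9, moved the same way in Type D. With all lines kept they passed only with the block. Mmp3 went from 5.67 to 143, from 1.39 to 8.28 and from 12.6 to 95.5 TPM, which is 25.3-, 5.95- and 7.61-fold. Its change of 3.07 had an adjusted p of 0.357 without the block and 0.000866 with it. Mmp13 went from 43.3 to 772, from 8.69 to 135 and from 26.1 to 85.7 TPM, which is 17.8-, 15.6- and 3.28-fold, and had an adjusted p of 0.465 without the block and 7.67e-05 with it (change 3.21). In the unblocked fit without Type V line 4716-10, Mmp13 was called in Type D (adjusted p = 0.0222) and Mmp3 was not. In Type V, Mmp3 went from 18.8 to 35.7, from 618 to 1735 and from 35.6 to 10.6 TPM, and Mmp13 from 2.15 to 7.18, from 684 to 758 and from 1.92 to 1.60 TPM. Line 4716-14 thus went down where the other Type V lines went up, and neither gene passed in either fit (adjusted p with the block 0.793 and 0.488). The AP-1 motifs of these 3 genes are those shown above, and their part in the changes was not tested. Mmp12, Mmp1a, Mmp1b and Mmp7 of the same run, which also held the motif, did not exceed 0.555 TPM in any library.

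Of the 6 membrane-type MMPs, 4 were tested. Mmp15, a collagen- and fibrin-cleaving member, was the only one called in both types. In Type V it went from 1.29 to 89.7, from 2.47 to 30.1 and from 1.26 to 86.4 TPM (4.58 ± 0.79, adjusted p = 0.000698). In Type D it went from 30.5 to 78.0, from 3.42 to 37.6 and from 1.86 to 55.2 TPM (2.92 ± 0.79, adjusted p = 0.0181), where line 4711-1 started high and ended only 2.56-fold higher. After restoration the lines of both types lay between 30.1 and 89.7 TPM. Mmp15 belongs to the study's Module 1, which was chosen on these samples, so its rise is not independent evidence.

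Mmp14 rose in Type D from 4.95 to 25.0, from 6.46 to 36.2 and from 20.7 to 55.4 TPM (1.94 ± 0.43, adjusted p = 0.00524). In Type V it was 214, 232 and 197 TPM before and 322, 226 and 226 TPM after (0.25, interval -0.66 to 1.16, adjusted p = 0.840). Even so, the highest Type D value after restoration was far below the lowest Type V value before it. Mmp24, a membrane-type MMP known from neurons, rose in Type D from 0.863 to 4.78, from 0.445 to 5.08 and from 3.78 to 9.80 TPM (1.63 ± 0.43, adjusted p = 0.0169), and in Type V did not exceed 1.56 TPM in either group (0.33, interval -0.58 to 1.24).

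**Figure D3:**
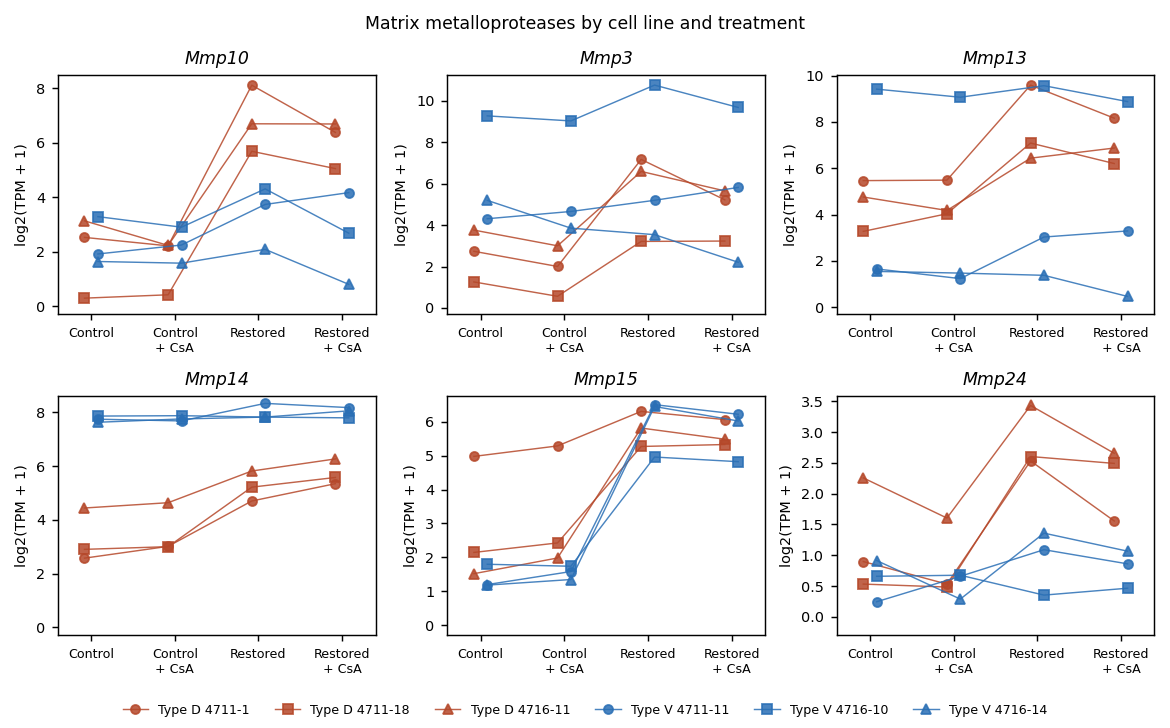
Mmp10, Mmp3, Mmp13, Mmp14, Mmp15 and Mmp24 as log2(TPM + 1) in each treatment, with 1 connected set of points per cell line (red, Type D; blue, Type V). All 3 Type D lines lie higher in Restored than in Control for each gene, Mmp15 is higher in all 6 lines, and Type V line 4716-10 holds Mmp3 and Mmp13 high in all 4 treatments.

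Members called only with the block were named after their values were seen, apart from Mmp2, Mmp3, Mmp13, Mmp28, Timp3 and Adamts1. In both types this was Adamts7, which cleaves cartilage oligomeric matrix protein and was higher by 1.12 in Type D (adjusted p with the block 0.00812) and by 1.20 in Type V (0.00603). In Type D they were also Adam19, higher by 1.02, and Adamts9, a versican-cleaving protease, lower by 1.39, with values of 1.28, 5.44 and 3.87 TPM before and 0.0413, 0.437 and 1.67 TPM after. In Type V they were Timp3, Mmp28, Mmp2 and Adam8 on the higher side, and Adamts1 and Adam12 on the lower. Timp3 went from 27.9 to 92.8, from 254 to 433 and from 95.8 to 169 TPM (1.09, adjusted p with the block 0.00175). Timp3 was also higher in 3 of 3 Type D lines, at 38.1, 122 and 126 TPM after restoration, where its change of 0.88 was under 1 log2. Mmp2 went from 1.30 to 4.44, from 1.91 to 8.16 and from 40.0 to 70.1 TPM (1.23, adjusted p with the block 4.6e-05). Mmp28 went from 6.01 to 12.7, from 20.1 to 53.3 and from 22.0 to 52.3 TPM (1.18, adjusted p with the block 0.000119). Adamts1 went from 18.2 to 14.9, from 103 to 28.8 and from 26.9 to 2.59 TPM (-1.68, adjusted p with the block 0.00047). The fibroblast markers were lower in the same Type V lines, with sums of 227, 500 and 374 TPM in Control and 192, 194 and 89.1 TPM in Restored. Col1a1, Col1a2, Col3a1 and Pdgfrb, 4 of the 8, were lower in 3 of 3 lines, Col1a2 for example at 19.0, 80.7 and 170 TPM before and 6.36, 11.6 and 6.88 TPM after. Their part in the Adamts1 change was not tested.

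The abundant sheddases stayed within 1 log2. Adam9 went from 325, 160 and 283 to 396, 253 and 321 TPM in Type D and from 193, 179 and 225 to 215, 179 and 184 TPM in Type V. Adam17 changed by -0.45 (interval -0.93 to 0.03) in Type D and by -0.09 (interval -0.57 to 0.39) in Type V. Timp1 changed by 0.19 (interval -0.61 to 0.99) in Type D and by 0.57 (interval -0.23 to 1.38) in Type V, and Timp2 by 0.04 and 0.53, with none of these called in either fit.

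The changes of the types were then compared with each other. Without the block none of 38 members differed, where 0.0284% of all genes were called by limma. At an unadjusted limma p under 0.05 there were 3 members, beside 540 of all 14104 genes. With the block 5 differed (13.2% of the members), where 2.44% of all genes were called. The change of Mmp10 was higher by 3.76 in Type D than in Type V (adjusted p with the block 0.00684), that of Mmp13 by 2.75 (0.0305) and that of Mmp14 by 1.69 (0.00318). For Adamts1 the difference was 1.59 (0.0445), with a change of -0.09 in Type D and -1.68 in Type V, so that it lay in the lower values of Type V. For Mmp2 the difference was -1.14 (0.015). In Type D Mmp2 was listed at 0 in every Control line and did not exceed 0.2185 TPM in Restored. Its difference thus lay in Type V alone. Adamts1 was at 0.0785 to 1.06 TPM in Type D Control, too low for a fall as large as that of Type V. For Mmp3 the difference was 2.83 and did not pass (0.0706), and for Mmp15 it was -1.66 with an adjusted p of 0.210.

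**Figure D4:**
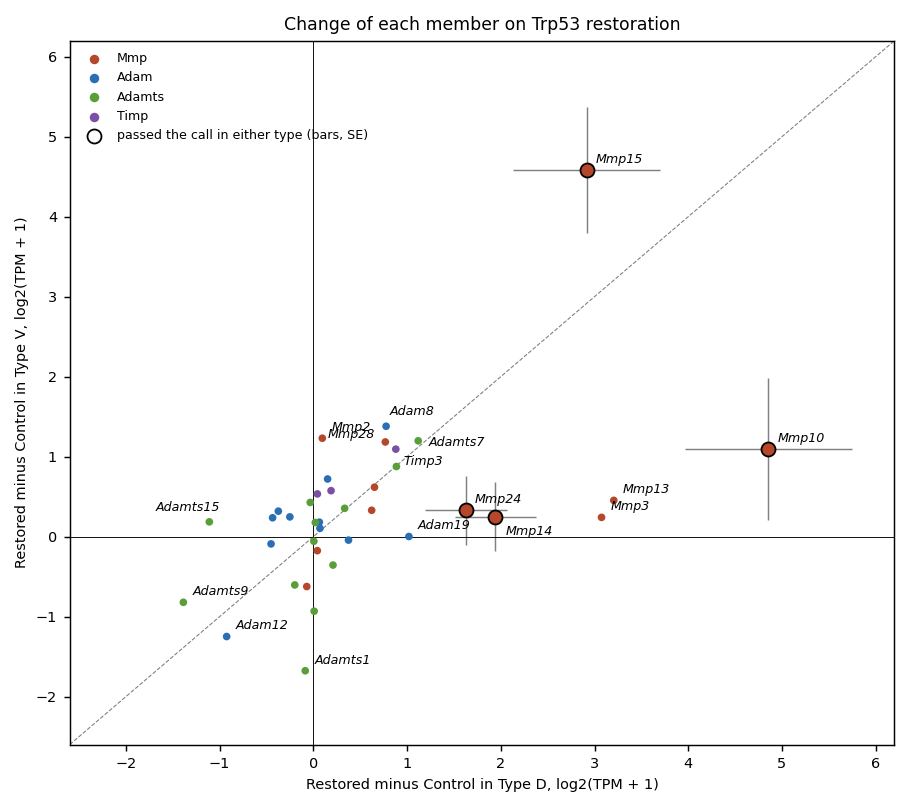
Change on restoration (Restored minus Control, log2(TPM + 1)) in Type D (x axis) and Type V (y axis) for each of the 38 tested members, colored by family, with larger outlined points and SE bars for members called in either type. Mmp15 lies high on both axes, while Mmp10, Mmp13, Mmp3, Mmp14 and Mmp24 lie to the right near a Type V change of 0 to 1.10.

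Restoration under CsA was compared with Control + CsA. In Type D 2 of 38 members were called higher (5.26%), where 3.53% of all genes were, namely Mmp10 (4.42, adjusted p = 0.0026) and Mmp14 (2.18). In Type V 1 was called (2.63%), where 2.84% of all genes were, namely Mmp15 (4.13, adjusted p = 0.00181). With the block 8 members were called higher in Type D (21.1%), where 5.91% of all genes were, and 2 lower (5.26%), where 3.78% were. Those higher were Mmp10, Mmp14, Mmp15 (2.39, adjusted p with the block 0.00227), Mmp24 (1.36, 0.00105), Mmp3 (2.85, 0.00184), Mmp13 (2.51, 0.000749), Timp3 (1.68, 5.14e-05) and Adamts7 (1.40, 0.00206), and those lower were Adamts9 and Adamts15. In Type V 5 were called higher with the block (13.2%), where 5.03% of all genes were, and 3 lower (7.89%), where 2.94% were. Those higher were Mmp15, Mmp2, Mmp28, Timp3 and Adam8, and those lower were Adamts1, Adamts5 and Adam12. Adamts5, Adamts7, Adamts9, Adamts15, Adam8 and Adam12 were named here after their values were seen. These comparisons share no libraries with those without CsA, but they share the lines. Without line 4711-18 only Mmp10 was called in Type D, and in Type V 0 members were called without line 4716-14 and 2 without line 4711-11.

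The effect of CsA itself was examined with and without restoration, and no member passed. Without restoration 0 of 38 members were called by limma in either type, where 0% of all genes were in each, and 0 had an unadjusted p under 0.05 in either type. With the block the members called were again 0, where 0.0142% of all genes were called in Type D and 0% in Type V. Here 1 member in each type had an unadjusted p under 0.05, beside 953 and 609 of all genes. After restoration 0 members were called, where 0.0142% of all genes were in Type D and 0% in Type V. With the block it was also 0, where 0.128% and 0% were. The block gave 3 and 1 members at an unadjusted p under 0.05, beside 1771 and 633 of all genes. For Mmp10 the Restored + CsA libraries of Type D held 82.3, 32.1 and 102 TPM, which is 0.298, 0.636 and 0.995 of the Restored value of the same line (change -0.79, interval -2.66 to 1.08). Mmp3 stood at 0.253, 1.01 and 0.516 and Mmp13 at 0.371, 0.538 and 1.36 of Restored. Line 4711-1 thus had the lowest share for each of the 3 genes, and line 4716-11 or 4711-18 the highest. Mmp14 ran the other way, at 1.59, 1.29 and 1.37 of Restored, higher in 3 of 3 lines (0.49, interval -0.42 to 1.39, adjusted p with the block 0.281).

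The balance of proteases to inhibitors was expressed as log2 of the summed TPM of all Mmp genes over that of Timp1 to Timp4, with 1 added to each sum. It is a description of transcripts, without a test, and says nothing of protein or activity. In Control the Type D lines had a balance of -2.35, -3.08 and -2.40 (mean -2.61 ± 0.41, SD, n = 3), with Mmp sums of 63.0 to 128 TPM under Timp sums of 540 to 655 TPM. The Type V lines had -1.80, 0.418 and -1.93 (mean -1.11 ± 1.32), with Mmp sums of 286 to 1647 TPM and Timp sums of 1001 to 1373 TPM. Line 4716-10, whose Mmp sum was mainly Mmp13 and Mmp3, was the only one in Control with more Mmp than Timp transcript.

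On restoration the balance went up in every Type D line, by 3.38, 2.09 and 1.90 (mean 2.46 ± 0.80), to 1.03, -0.987 and -0.497. The Mmp sums reached 1356, 342 and 481 TPM, and the Timp sums went from 655, 540 and 630 to 664, 679 and 679 TPM. In line 4711-1 Mmp13 alone was 56.9% of the Mmp sum. In Type V the balance moved by 0.058, 0.175 and 0.267 (mean 0.17 ± 0.11), since Mmp and Timp sums went up together, the latter to 1628 to 1954 TPM. Under CsA the restored Type D lines were at 0.035, -1.53 and -0.336 and the Type V lines at -1.75, 0.180 and -1.74. With each member weighted alike, as the mean of log2 values, the restoration change in Type D was 1.27, and the difference of types in Control, -1.51 by sums, turned to 0.34.

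The ADAM and ADAMTS sum over Timp3 moved the other way. In Control it was 4.82, 3.61 and 3.29 in Type D and 4.39, 1.34 and 2.68 in Type V, on the same log2 scale, and all 6 lines held more protease than Timp3 transcript. On restoration it changed by -0.509, -1.19 and -0.659 in the Type D lines and by -1.22, -0.813 and -0.871 in the Type V lines. In Type D the ADAM sums changed little, from 639 to 696 TPM to 632 to 750 TPM. In Type V they went from 517, 483 and 514 to 677, 550 and 510 TPM, and the ADAMTS sums from 87.2, 161 and 106.5 to 166, 74.7 and 85.7 TPM. Timp3 went up in all 6 lines.

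**Figure D5:**
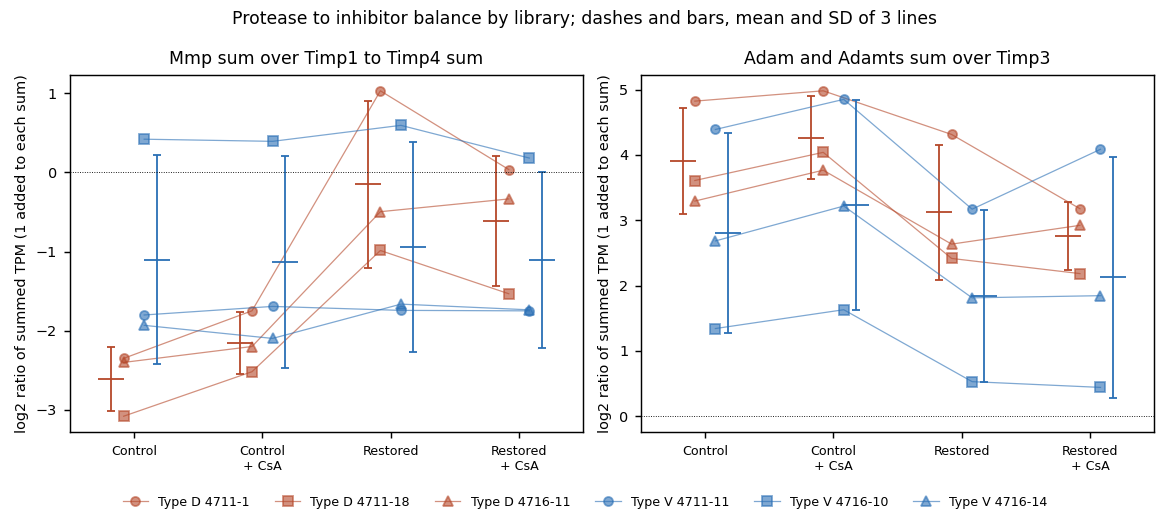
Protease to inhibitor balance (log2 ratio of summed TPM, 1 added to each sum) in each treatment for each line, with dashes and bars for the mean and SD of 3 lines (red, Type D; blue, Type V). The left panel shows the Mmp to Timp balance going up in the 3 Type D lines on restoration and staying within 0.267 of Control in Type V, and the right panel shows the Adam and Adamts balance to Timp3 going down in all 6 lines.

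Genes known to activate, dock or inhibit these proteases were read from a list of 37, of which 29 were tested. In Control 3 were called higher in Type D (10.3%) and 3 lower, where 2.18% and 2.30% of all genes were. Tspan15, a tetraspanin that steers Adam10 to its substrates, was at 156, 147 and 103 TPM in Type D and 15.9, 18.4 and 8.77 TPM in Type V (3.18 ± 0.31, adjusted p = 0.0103). Pcsk6, a convertase that removes propeptides, was at 66.8, 35.9 and 43.3 TPM against 4.54, 8.51 and 6.68 TPM (2.70 ± 0.32, adjusted p = 0.0148), and Thsd4, an ADAMTS-like matrix protein without a protease domain, was higher by 3.86 ± 0.51 (adjusted p = 0.0197). Adamtsl4, an ADAMTS-like protein of microfibrils, was lower by 2.44 (-2.44 ± 0.36, adjusted p = 0.0237). The remaining 2, named after their values were seen, were Reck, a membrane-anchored inhibitor of MMPs, at or below 0.162 TPM in Type D and 3.31, 1.37 and 2.47 TPM in Type V, and Tll1, a procollagen-cleaving astacin, listed at 0 in the Type D lines. Tspan15, Pcsk6 and Thsd4 are in the study's Type D signature and Adamtsl4 in its Module 6, both chosen on these samples.

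On restoration 3 of the 29 rose in each type (10.3%), where 4.49% of all genes did in Type D and 3.39% in Type V. None was called lower, where 2.44% and 1.90% of all genes were. Rhbdf2, the inactive rhomboid needed for the transport of Adam17, rose from 23.6, 30.9 and 25.2 to 97.1, 99.7 and 82.8 TPM in Type D (1.78 ± 0.26, adjusted p = 9.65e-05) and from 31.8, 22.2 and 52.1 to 77.6, 76.4 and 112 TPM in Type V (1.36 ± 0.26, adjusted p = 0.00182). Pcsk6 rose in both as well, by 1.65 in Type D (adjusted p = 0.00132) and by 1.96 in Type V (adjusted p = 0.000359). Frmd8, which binds and stabilizes the inactive rhomboids, rose in Type D by 1.16 (adjusted p = 0.000947), and Adamtsl4 in Type V by 1.71 (adjusted p = 0.0272). Adam17 itself was not called in either type. Some Adam10 and Adam17 partners on the list went down in 3 of 3 Type D lines by less than 1 log2, and are named after their values were seen. They were Rhbdf1 (-0.85, limma adjusted p with the block 7.59e-05), Tspan15 (-0.89, 0.000441) and the low Tspan33 (-0.37, 0.123). None of them moved the same way in all Type V lines. With the block 7 of the 29 were called higher in Type D (24.1%), where 7.05% of all genes were, and 1 lower, where 4.16% were. In Type V 4 were called higher (13.8%), where 5.74% were, and none lower, where 2.93% were. The genes added by the block are named after their values were seen. The largest of these changes was that of Serpine2, an inhibitor of plasminogen activators and thrombin, which went from 14.2, 0.748 and 195 to 117, 37.0 and 832 TPM in Type D (3.16, adjusted p with the block 2.81e-06) and from 652, 90.1 and 67.7 to 3553, 709 and 708 TPM in Type V (2.92, 8.35e-06). The lines differed widely in its level, and without the block it was not called (adjusted p = 0.283 and 0.367). In Type D the block also added the plasminogen activator genes Plau (1.53, 0.00346) and Plat (1.13, 5.21e-05) and Adamtsl4 (1.11, 0.0178) on the higher side, and the lower one was Mep1a, an astacin protease (-1.11, 0.0172).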

How the data were processed

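The 24 libraries were stranded mRNA preparations read single-end. The authors deposited 1 table of TPM values, used as deposited; both kallisto and HISAT2, and both mm10 and GRCm39, are named in the methods, and which of them underlie the table is not stated. TPM sums to 1000000 per library, and depth is unknown. Members and gene lists were chosen with earlier results of these data known.

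Genes at 1 TPM or more in at least 3 libraries (14104) were analysed as log2(TPM + 1), with limma 3.58.1 in R 4.3.3 (eBayes with trend, two-sided). Types were compared on the 6 libraries of a treatment, so that the 4 libraries of a line were not counted as separate tumors. Treatments were compared in 1 fit of all 8 groups, without a block. Replicates are separate lines, and the labels pair libraries by cell line: deviations from the group mean correlated at 0.599 to 0.929 within a line and at -0.675 to 0.0438 between lines of the same type. The block was therefore run beside the main test.

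Named members were those called in the comparisons of types, of restoration or of their difference, Timp1 to Timp4, Mmp2, Mmp9, Mmp14, Mmp15, Adam10, Adam17 and members with a mean of at least 20 TPM; partner genes were named if called, up to 4 per comparison. The alternatives tried were no filter, a minimum of 5 TPM, a pseudocount of 0.1, quantile normalization, median-ratio scaling, the block, fits to the compared groups alone or to all 24 libraries, and each line left out. Balances were also computed from means of log2 values and without Mmp3, Adam9 or Timp2, the members with the largest means. Scripts were tested on simulated data. Promoter windows are from RefSeq. Figures were drawn with matplotlib 3.10.9.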

Additional observations from a re-analysis of the deposited data

Results flagged for a closer look

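For 3 members all lines of one type moved one way and all lines of the other type the opposite way under the same treatment. These differences were small, and only the one on restoration alone was tested. On restoration Adam10 was lower in 3 of 3 Type D lines (mean -0.44) and higher in 3 of 3 Type V lines (mean 0.24), a difference of -0.67 that was not called (limma adjusted p = 1.0 without and 0.0553 with the cell line block). Under CsA without restoration Adam10 differed by -0.21 (means -0.05 and 0.16), and Adamts14 by -0.355 (means -0.089 and 0.266), and these were not tested. The Adamts14 values of Type D were near the floor, at 0.307, 0.0360 and 0.0335 TPM in Control and 0.163, 0 and 0 TPM with CsA. With restoration under CsA Adam9 was higher in the Type D lines (mean 0.51) and lower in the Type V lines (mean -0.18), a difference of 0.69 that was not tested.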

How the results depend on the processing

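The cell line block gave the largest shifts: members called higher and lower on restoration became 8 and 1 in Type D and 6 and 2 in Type V, under CsA 8 and 2 in Type D and 5 and 3 in Type V, and 5 differed between types. It changed no count for CsA itself. Restoration fitted on the compared groups alone left 1 member higher in Type D, without and with CsA. For the types in Control, no filter on low values left 2 lower, and a fit to all 24 libraries gave 1 higher (Adam15), or 1 higher and 9 lower with the correlation within a line (0.736) estimated. In Restored, no filter left 1 lower, a minimum of 5 TPM or quantile normalization gave 1 higher, and both fits to all 24 libraries gave 2 higher and 7 lower. For these alternatives the cause was not tested.

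Leaving out a line gave 0 to 7 lower in Control, 0 to 5 lower in Restored, 1 to 5 higher on restoration in Type D and 1 to 2 in Type V. Under CsA it gave 1 to 3 higher and 0 to 1 lower in Type D, 0 to 2 higher and 0 to 1 lower in Type V, and 0 to 1 for the difference of the types. No member named as called changed sign under any alternative run. Mmp10 kept its call on restoration in Type D, and Mmp15 in Type V, in 13 of 13 alternatives.

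The Mmp balance between types in Control was 0.336 from means of log2 values, where its direction turned, and -0.288 without Timp2. Its change on restoration was 1.27 from means in Type D, and 0.0583 from means and 0.00726 without Mmp3 in Type V. TPM keeps no counts, so what depth limits could not be read.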
